A study of Drosophila melanogaster with 12 samples.

Results

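Adult flies that were heterozygous for an AKHR mutation and had an obese father were compared with wildtype flies by polyA RNA sequencing of whole animals. The comparison takes in 6 of the 12 libraries of the study: the 3 labelled Paternal and the 3 labelled Wildtype, numbered 1 to 3 in both groups and treated as 3 pairs. All libraries come from Drosophila melanogaster adults of 10 to 11 days in the Canton S background, and the labels name no treatment. The wildtype flies carried no AKHR mutation and had no obese parent. The paternal flies were AKHR +/-, and obesity is recorded for the father only. The other 6 libraries, used below where a difference from these groups is at issue, are AKHR +/- flies with no obese parent (het, n = 3) and AKHR +/- flies with an obese mother (maternal, n = 3). The sex of the flies, the kind of AKHR mutation, the cause of the fathers' obesity, the genotype of the parents and the number of flies per library are not stated in these sources. Genotype and the father's obesity both differ between the paternal and wildtype flies, so their parts in any change against wildtype cannot be told apart within this pair of groups.

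Adipokinetic hormone (AKH) is a peptide made by neuroendocrine cells of the corpora cardiaca, and in flies it acts much as glucagon does in mammals. Its receptor AkhR, a G protein-coupled receptor of the fat body, drives the release of stored triglyceride and the breakdown of glycogen during fasting. Flies that lack the receptor are known for accumulating body fat, which is why AkhR mutants serve as a genetic model of obesity.

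The libraries held 17212029 to 21370713 reads assigned to listed genes, with 18901822, 17212029 and 21370713 in paternal libraries 1 to 3 and 19610648, 18788352 and 19793790 in wildtype libraries 1 to 3. Levels are given as CPM, read counts scaled to a common library size with TMM factors, and differences as log2 changes, paternal minus wildtype, from edgeR's quasi-likelihood test with the replicate number as a block. A gene was called changed at a Benjamini-Hochberg adjusted p under 0.05 over all 12809 tested genes. Markers of several tissues were present in all 6 libraries, on the length-corrected FPKM scale. The opsin gene ninaE lay between 4668 and 5282 FPKM, the accessory gland gene Acp70A between 961 and 1164 FPKM and the testis gene Mst84Da between 607 and 692 FPKM. The female yolk protein genes Yp1 and Yp2 did not exceed 2.47 and 1.37 FPKM. High male and near-absent female markers are the pattern of male flies, although no label states the sex. In such whole-fly RNA, fewer cells of a type and less RNA per cell cannot be told apart.

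The gene encoding the receptor itself, listed under its older symbol GRHR, showed no called change. It lies on the minus strand of chromosome arm 2L at 2L:6711286-6716186 of the D_melanogaster_Apr_2006 (dm3) assembly, the build of all coordinates here. Its level was 84.7, 77.3 and 84.8 CPM in wildtype libraries 1 to 3 and 80.8, 73.7 and 80.8 CPM in paternal libraries 1 to 3. The paternal library was the lower one in each pair, but the groups overlapped. The log2 difference was -0.07 (SE 0.0410, edgeR adjusted p = 0.461). Since neither the kind of mutation nor its position is known here, the summed count of the gene checks the genotype labels only if the mutation lowers the transcript.

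Between obese-father offspring and wildtype flies, 206 genes passed the threshold, which is 1.61% of those tested. Of these, 67 rose (0.523%) and 139 fell (1.09%). Most shifts were small: the median log2 change was 0.30 among the genes that rose and -0.27 among those that fell, and 40 genes moved by more than 0.5 in either direction. The 9 genes that moved by more than 1 all lay on arm 2L. For 193 of the called genes the 3 paternal and 3 wildtype levels did not overlap, against 2459 of all tested genes (19.2%). All 206 moved in the fitted direction in each of the 3 pairs, as did 5178 of all tested genes (40.4%). By current annotation, 191 of the called genes encode proteins, 6 are noncoding RNA genes and 3 are pseudogenes. By start and end positions, leaving strand and exons aside, 72 of them overlap another listed gene. Some reads of such genes may not be assignable to either with certainty.

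The number of called genes depended on how the 3 replicate sets were handled. Without the block, edgeR called 67 genes, all of them within the 206, with 20 higher, 47 lower and 51 on arm 2L. Leaving out a single library gave 59 genes without paternal 1, 101 without paternal 2, 77 without paternal 3, 108 without wildtype 2 and 114 without wildtype 3, and 176 without wildtype 1, of which 135 were among the 206. Leaving out maternal library 1, which is no member of the comparison but shares its estimate of spread, gave 781. With library sizes left unscaled 296 genes passed, of which 174 were higher (58.8%), against 67 of 206 in the scaled fit. The share of rises also moved with the scaling unchanged, to 47.1% of 876 genes when the 6 libraries were fitted alone with the block and to 47.9% of the 781. All 206 genes kept their direction under each of the 19 alternatives in which they were tested. A set of 49 genes passed in each of the 6 fits that left out a paternal or wildtype library, and 43 of these lie on 2L. A smaller set of 28 genes, 13 higher and 15 lower, passed under every alternative that gave a value, and 26 of these lie on 2L.

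The called genes were unevenly placed along the genome. Arm 2L, which carries AkhR, held 113 of the 206 (54.9%) although it holds 19.2% of tested genes. This amounts to 4.60% of the 2454 tested genes of the arm, with 44 higher and 69 lower. The part of the calls on 2L was 31.2% (273 of 876) in the blocked fit of the 6 libraries alone and 31.9% (249 of 781) without maternal library 1. Elsewhere 93 of 10355 genes were called (0.898%), and these were mostly decreases, with 70 lower and 23 higher. The share was 1.00% on 2R, 1.15% on 3L, 0.988% on 3R and 0.2% on the X, where 4 of 1997 genes passed.

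**Figure D1:**
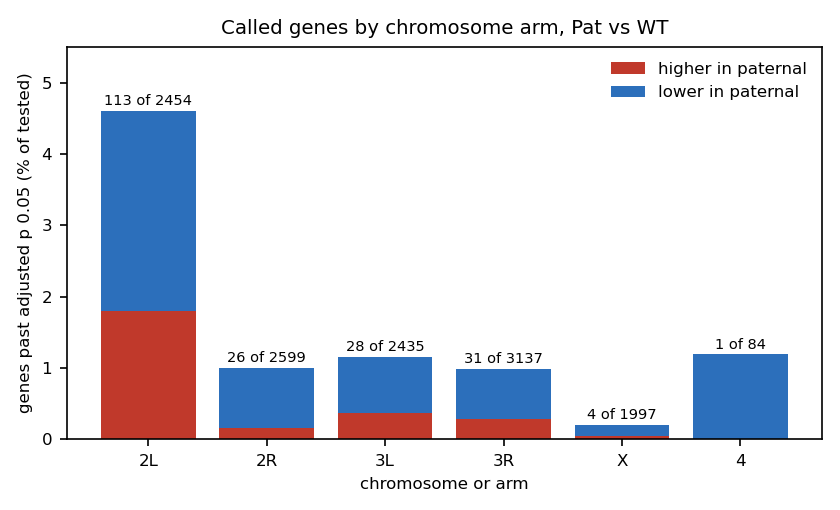
Share of tested genes past an edgeR adjusted p of 0.05 (y axis, %) on each chromosome or arm (x axis), split into genes higher and lower in the obese-father offspring; the label above each bar gives called and tested genes. Arm 2L stands at 4.60%, while 2R, 3L and 3R lie between 0.988% and 1.15% and the X at 0.2%.

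Along 2L, the share of called genes did not fall steadily with distance from AkhR. Over both sides, within 1 Mb of the gene, 23 of 243 tested genes were called (9.47%), and between 1 and 2.5 Mb 12 of 384 (3.12%). Further out, 38 of 646 genes were called between 2.5 and 5 Mb (5.88%), 32 of 645 between 5 and 10 Mb (4.96%) and 8 of 535 beyond 10 Mb (1.5%). The sides of AkhR were unlike. On the side towards the tip of the arm, 29 of 306 genes passed at 2.5 to 5 Mb (9.48%) and 19 of 193 beyond 5 Mb (9.84%). On the side towards the centromere the corresponding counts were 9 of 340 (2.65%) and, between 5 and 10 Mb, 13 of 452 (2.88%). Within 1 Mb, the shares were 9.86% (14 of 142) on the side towards the tip and 8.91% (9 of 101) on the other. These shares are descriptions, since neighbouring genes are not independent.

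**Figure D2:**
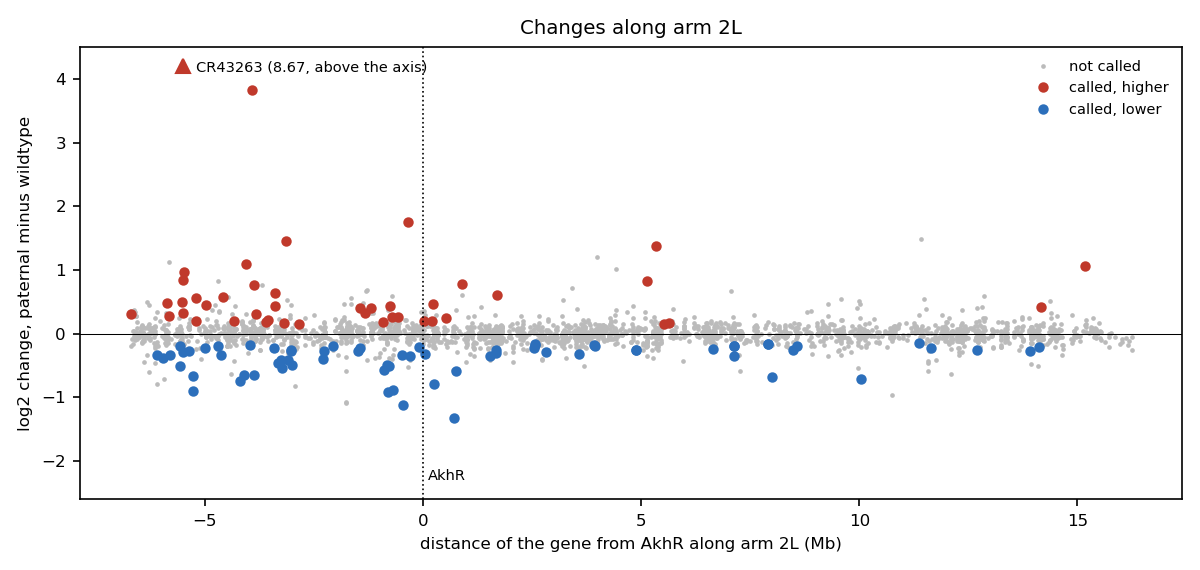
Fitted log2 change, paternal minus wildtype (y axis), of each tested gene of arm 2L against its distance from AkhR in Mb (x axis, negative towards the tip of the arm); red and blue points are called genes, grey points are not called. CR43263 is drawn as a triangle because its fitted value of 8.67 is above the axis, and red and blue points are dense between the tip and AkhR.

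Genes named below for the largest changes were taken only from called genes whose paternal and wildtype levels did not overlap. For them the separation of the groups describes the levels and is no added evidence. The strongest rises came from genes close to silent in wildtype flies. CR43263, a noncoding RNA gene at 2L:1216854-1217785, had 0.00, 0.00 and 0.0511 CPM in wildtype libraries 1 to 3 and 10.7, 8.40 and 10.0 CPM in paternal libraries 1 to 3. A single wildtype read stood against 565 paternal reads, a depth-corrected ratio of 572 with an exact 95% counting interval of 102 to 22630, which covers counting error only. The groups were fully separate (edgeR adjusted p = 5.08e-12). CR43821, a second noncoding RNA gene, had 8 wildtype reads and 119 paternal reads, a ratio of 15.1 with a counting interval of 7.40 to 35.7. It overlaps Syt1, so the origin of its reads is less certain.

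CR43263 sits in a stretch of 2L in which every tested gene was called. The 6 genes between 1198465 and 1229802 were singled out after their values were seen. Besides CR43263, CG5139, CG43348, CG5011 and CG42329 rose by 0.50, 0.85, 0.32 and 0.96 on the log2 scale, while CG43349 fell by 0.29. CG42329 had 15.8, 20.2 and 18.3 CPM in wildtype libraries 1 to 3 and 33.0, 37.4 and 35.4 CPM in paternal libraries 1 to 3. Each paternal library was therefore well above every wildtype library (SE 0.0690, edgeR adjusted p = 1.05e-07). CG43348 was less stable and lost its call in 4 of the 6 fits without 1 library.

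The other large rises on 2L included genes of enzyme families. CG9505, now named Nepl4, belongs to the neprilysin-like family, whose typical members cleave small peptides at the cell surface. Its level was 3.55, 3.76 and 3.01 CPM in wildtype libraries 1 to 3 and 10.7, 13.5 and 10.9 CPM in paternal libraries 1 to 3, with no overlap. The log2 change was 1.76 (SE 0.120, edgeR adjusted p = 7.81e-08). CG9505 was the only one of 26 tested neprilysin-type genes to pass (3.85%, against 1.61% of all genes). CG14945, now PLCXD, is named for the X domain of phosphatidylinositol phospholipase C. Wildtype libraries 1 to 3 had 5.86, 10.8 and 9.76 CPM and paternal libraries 1 to 3 had 21.8, 22.6 and 23.8 CPM. Wildtype 1 was the lowest and the groups remained apart, with a log2 change of 1.38 (SE 0.114, edgeR adjusted p = 4.85e-06). CG14945 overlaps JhI-21, which limits the assignment of its reads. CG11629, 15.2 Mb from AkhR, rose by 1.07 (SE 0.135, edgeR adjusted p = 0.000116), from 3.13, 3.82 and 4.19 CPM in wildtype libraries to 7.84, 7.94 and 7.55 CPM in paternal ones.

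Cyp4d21, also known as sxe1, is a cytochrome P450 described in the fat body of male fly heads. It rose from 58.8, 55.3 and 52.9 CPM in wildtype libraries 1 to 3 to 97.3, 102 and 87.6 CPM in paternal libraries 1 to 3. The lowest paternal library exceeded the highest wildtype library, and the log2 change was 0.78 (SE 0.0760, edgeR adjusted p = 7.23e-05). kraken, which encodes a serine hydrolase, rose by 0.47 (SE 0.0515, edgeR adjusted p = 2.15e-05), from 65.6 to 68.9 CPM in wildtype libraries to 86.3 to 98.7 CPM in paternal ones. Both genes passed under every alternative, as did CG5139, CG18132, CG2983, CG31937 and CG18304, whose log2 rises lay between 0.45 and 0.76.

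Genes that handle sugars and glycerol phosphate contributed a few rises. Gpdh, now Gpdh1, encodes the cytosolic glycerol-3-phosphate dehydrogenase, which links glycolysis to triglyceride synthesis and to the glycerol phosphate shuttle. It had 440, 467 and 507 CPM in wildtype libraries 1 to 3 and 636, 593 and 674 CPM in paternal libraries 1 to 3. All paternal libraries were above all wildtype libraries, and the log2 change was 0.43 (SE 0.0511, edgeR adjusted p = 8.70e-05). The call rests on the block, since the adjusted p was 0.171 without it. None of the other 15 tested genes on the list of glycolysis and the shuttle passed, so 6.25% of the list was called, against 1.61% of all genes. Gpdh lies on 2L within 1 Mb of AkhR. Of tested genes, 4.60% were called on that arm and 9.47% within 1 Mb of AkhR. Of 20 tested sugar transporter genes, CG33282, CG8837 and sut3 rose (15.0%, against 1.61% of all genes called). The first pair are neighbours within 10 kb on 2L, where 4.60% of genes were called. CG33282 went from 9.81, 9.14 and 9.96 CPM in wildtype libraries to 15.5, 14.1 and 15.5 CPM in paternal libraries (log2 change 0.64, SE 0.0702, edgeR adjusted p = 2.19e-05). CG8837 rose by 0.43 and sut3, on 2R, by 0.25. sut3 lost its call without the block (adjusted p = 0.0624).

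Among the falls on 2L, the C-type lectin gene CG15818 had the largest. C-type lectins bind sugars and serve in immunity and, in several Drosophila cases, in seminal fluid. CG15818 had 27.9, 33.2 and 32.1 CPM in wildtype libraries 1 to 3 and 11.5, 14.2 and 11.5 CPM in paternal libraries 1 to 3. The groups were far apart, with a log2 change of -1.33 (SE 0.0912, edgeR adjusted p = 1.05e-07). Of 25 tested C-type lectin genes, 6 fell and 1 rose, against 1.61% of all genes called, and the median over all 25 was -0.09. The list is rich in 2L genes, where 4.60% were called: 15 of the 25 and 6 of the 7 calls lie on that arm. The others that fell were CG6055 (-0.58), lectin-29Ca (-0.26), lectin-30A (-0.23), Acp29AB (-0.30) and lectin-21Ca (-0.34), all on 2L, and the gene that rose was CG8343 on 2R (0.33). Between 4 and 7 of these genes passed when 1 paternal or wildtype library was left out, and 4 passed without the block.

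CG9486, now AANATL2, encodes a member of the arylalkylamine N-acetyltransferase-like family, enzymes that acetylate amines. It fell from 8.58, 9.79 and 12.3 CPM in wildtype libraries 1 to 3 to 4.16, 4.49 and 5.32 CPM in paternal libraries 1 to 3 (log2 change -1.13, SE 0.103, edgeR adjusted p = 2.92e-06). Every paternal library was below every wildtype library, and CG9486 overlaps Ddr. yellow-b, from the family named for the pigmentation gene yellow, fell from 17.1, 16.6 and 13.7 CPM in wildtype libraries to 10.4, 9.92 and 8.57 CPM in paternal ones. Its log2 change was -0.72 (SE 0.0894, edgeR adjusted p = 0.000102). No other of the 9 tested yellow genes passed, so 11.1% were called, against 1.61% of all genes. CG3528 went from 25.5, 21.4 and 21.6 CPM to 13.6, 13.4 and 13.6 CPM, a log2 change of -0.75 (SE 0.0694, edgeR adjusted p = 2.92e-06). The neighbours CG43401 and CG43402 fell by 0.90 and 0.67 (log2). The noncoding RNA genes CR43142 and CR43808 fell by 0.79 and 0.93, the latter with an adjusted p of 0.144 without the block. CG9109 and CG15282, at under 3 CPM in every library of both groups, fell by 0.89 and 0.69. Their calls were lost in at least 5 of the 6 fits that left out a library.

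**Figure D3:**
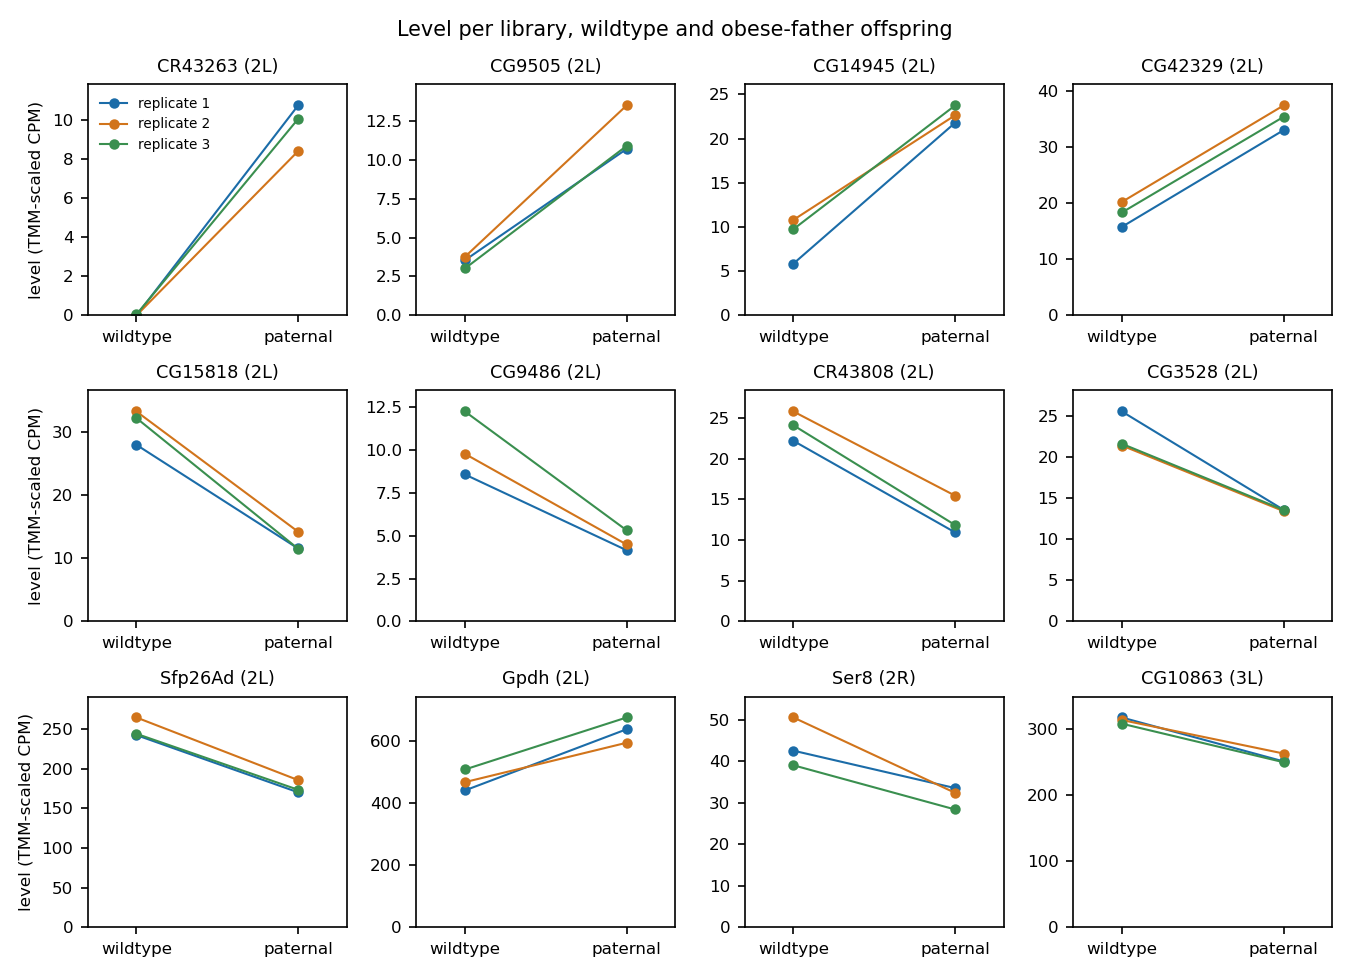
TMM-scaled CPM (y axis, from 0) of 12 genes in the wildtype and paternal libraries (x axis); each line joins the libraries that share a replicate number. All lines slope the same way within a panel and the groups do not overlap, from CR43263 with 0.00 to 0.0511 CPM in wildtype libraries to CG10863 with 307 to 317 CPM there. All 12 genes were drawn from the called genes, several by a rule that required no overlap, so slope and separation are no added evidence.

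Some seminal fluid genes fell in the obese-father offspring. These proteins are made mainly in the male accessory gland and pass to the female at mating. Of 28 tested genes named Sfp, 9 fell and none rose, with a median log2 change of -0.20 over all 28. Of 27 tested genes of the accessory gland list, 6 fell and none rose, with a median of -0.17. Over all tested genes 1.61% were called and the median was -0.01. On 2L, where 4.60% of genes were called, lie 16 of the 28 Sfp genes and 5 of their 9 calls. Of the accessory gland list, 6 of 27 genes and 2 of the 6 calls lie there. Against the same wildtype libraries, the Sfp list had 10 calls and a median of -0.24 in het flies and 5 calls and a median of -0.16 in maternal flies. The accessory gland list had 4 calls and a median of -0.14 in het flies and 3 calls and a median of -0.13 in maternal flies. The lists were drawn up with earlier results of these data known, so their direction is not independent evidence. The number of calls was sensitive: without 1 paternal or wildtype library, 2 to 7 Sfp genes and 1 to 9 accessory gland genes passed, and without the block 2 and 3 passed. The medians kept their sign under all alternatives, between -0.26 and -0.15 for the Sfp genes and between -0.20 and -0.12 for the accessory gland genes. At unadjusted p under 0.05 stood 19 of the Sfp genes and 16 of the accessory gland genes, against 1899 of all 12809. Those of the Sfp list included CG42463 and Sfp24Ba, which were higher in paternal flies (0.30 and 0.25) and not called. Of all 28 Sfp genes, 25 had negative and 3 positive values.

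Sfp26Ad, 0.771 Mb from AkhR, had the firmest evidence among them. Its level was 242, 264 and 244 CPM in wildtype libraries 1 to 3 and 170, 186 and 173 CPM in paternal libraries 1 to 3, without overlap. The log2 change was -0.50 (SE 0.0402, edgeR adjusted p = 4.17e-07), and the 3 pairs differed by -0.51, -0.51 and -0.49. Sfp26Ac, its neighbour, fell equally on the log2 scale (-0.50, SE 0.0889, edgeR adjusted p = 0.00505) from 12.8, 15.5 and 13.1 CPM to 9.11, 11.2 and 9.12 CPM. Sfp23F fell by 0.46, and Sfp35C and Sfp24F by 0.26 and 0.27. The remaining Sfp genes that fell lie off 2L, namely Sfp53D, Sfp70A4, Sfp51E and Sfp65A.

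Acp36DE, a glycoprotein that sperm need for storage in the female, went from 1722, 1821 and 1761 CPM in wildtype libraries 1 to 3 to 1483, 1547 and 1517 CPM in paternal libraries 1 to 3. The groups were apart, with a log2 change of -0.22 (SE 0.0364, edgeR adjusted p = 0.00237), though the gene overlaps Fas3. Acp53Ea fell by 0.27 (SE 0.0504, edgeR adjusted p = 0.00652) from 482, 572 and 509 CPM to 428, 451 and 414 CPM. It lies beside Acp53C14b and Sfp53D on 2R, and the 3 genes were called together within 6 kb of each other. Mst57Dc, Acp29AB and Acp76A also fell, by 0.26, 0.30 and 0.24. The gene encoding sex peptide, Acp70A, was not called (log2 difference -0.20, adjusted p = 0.434). msopa, on 3L, described as a male-specific gene of the accessory gland, fell from 77.3, 84.4 and 74.2 CPM to 53.3, 62.3 and 51.0 CPM (log2 change -0.50, SE 0.101, edgeR adjusted p = 0.0407). No fit that left out a paternal or wildtype library kept that call.

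Germline lists gave 1 call in edgeR, a rise. On the testis and sperm list, 1 of 33 tested genes was called, hale, which rose by 0.23 but was not called without the block (adjusted p = 0.155) and was called in 1 of the 6 fits that left out a library. That call is 3.03% of the list, against 1.61% of all genes. The list's median was 0.06, with 29 of 33 genes at positive values and 9 at unadjusted p under 0.05. DESeq2 called 2 genes of the list and limma 1, and the most in any alternative was 6. Against the same wildtype libraries the list had 2 calls and a median of 0.07 in het flies. In maternal flies it had 4 calls and a median of 0.10. None of 7 tested Y-linked genes and none of 10 tested yolk, chorion and egg genes passed in edgeR, and in neither list was any gene at unadjusted p under 0.05. DESeq2 and limma likewise called 0 in both lists.

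Photoreceptor genes showed 4 calls among 27 tested, all falls, against 1.61% of all genes called, with a list median of -0.08. On 2L, where 4.60% of genes were called, lie 7 of the 27 and 2 of the 4 calls. Against the same wildtype libraries the list had 7 calls in het and 6 in maternal flies. ninaE encodes Rh1, the opsin of the outer photoreceptors, and had 8081, 8270 and 8530 CPM in wildtype libraries 1 to 3 against 7418, 7501 and 7416 CPM in paternal libraries 1 to 3. The ranges did not touch, but the log2 change was only -0.16 (SE 0.0339, edgeR adjusted p = 0.0219). Rh3, an ultraviolet opsin of R7 cells, fell by 0.26 from 66.7, 74.1 and 76.4 CPM to 58.1, 62.7 and 60.7 CPM. Arr1, an arrestin that shuts off rhodopsin, and Ggamma30A, a G protein subunit of the eye, fell by 0.15 and 0.17. None of the 4 was called without the block, and 0 to 2 genes of the list were called when 1 paternal or wildtype library was left out. Neuronal genes (0 of 18 tested, 3 at unadjusted p under 0.05, median -0.09), neuropeptide genes (0 of 29, 8 unadjusted, median -0.09) and clock genes (0 of 12, 0 unadjusted, median 0.03) gave no calls in the blocked 12-library fits of edgeR, DESeq2 or limma. Under the alternatives with the most calls, 5 neuronal, 3 neuropeptide and 1 clock gene passed.

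**Figure D4:**
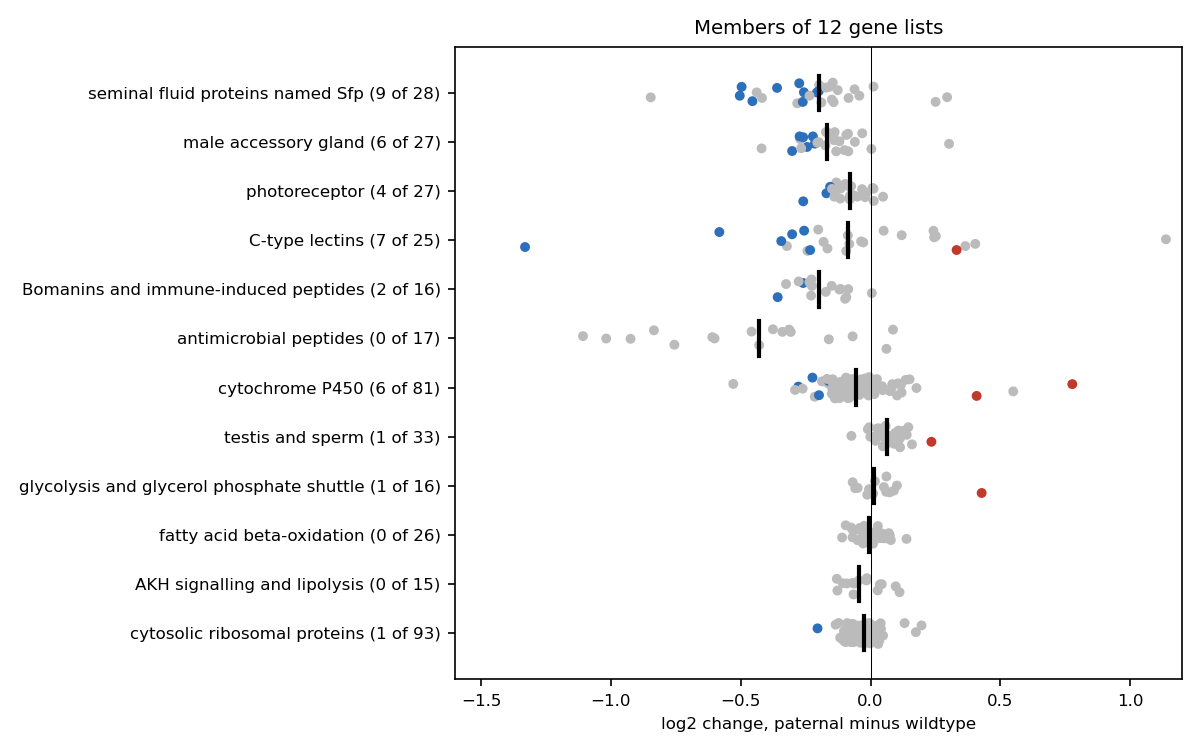
Fitted log2 change, paternal minus wildtype (x axis), of each tested member of 12 gene lists (rows); red and blue points passed the edgeR threshold, grey points did not, black bars are list medians, and the numbers give called and tested members. The Sfp and accessory gland rows lie mostly left of 0 with medians of -0.20 and -0.17, while the row of AKH signalling and lipolysis holds no called gene.

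Cytochrome P450 genes, many of which serve detoxification, changed in both directions. Of 81 tested, Cyp4d21 and Cyp4ac3 rose and Cyp28d1, Cyp4ac1, Cyp6w1 and Cyp4e2 fell, against 1.61% of all genes called. On 2L, where 4.60% of genes were called, lie 14 of the 81 and 4 of the 6 calls. Without the block only Cyp4d21 and Cyp28d1 were called. Cyp4ac3 and Cyp4ac1 lie in the same cluster on 2L, within the interval of tkv, yet changed in opposite directions, by 0.41 and -0.22. Cyp28d1 went from 353, 357 and 357 CPM in wildtype libraries to 276, 298 and 305 CPM in paternal ones (log2 change -0.28, SE 0.0417, edgeR adjusted p = 0.000949). Of 32 tested UDP-glycosyltransferase genes 1 was called (3.12%, against 1.61% of all genes). This was Ugt37b1, which fell by 0.34, a call that was lost without the block (adjusted p = 0.344). Ugt37b1 and 8 of the 32 genes in all, itself included, lie on 2L, where 4.60% of genes were called. None of 33 tested glutathione S-transferase genes passed in edgeR, DESeq2 or limma, with 5 at unadjusted p under 0.05. At most 1 of them passed under any alternative.

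Pathways of fat and sugar metabolism gave few calls. None of 15 tested genes of AKH signalling and lipolysis passed in edgeR, DESeq2 or limma, with 2 at unadjusted p under 0.05. Those were foxo, a transcription factor restrained by insulin signalling (log2 difference -0.13, adjusted p = 0.252), and Galpha49B, a Gq subunit (log2 difference -0.13, adjusted p = 0.204). The summed level of the AKH list was 2140 to 2196 CPM in wildtype libraries and 2117 to 2271 CPM in paternal libraries, so the ranges overlapped. Fatty acid and triglyceride synthesis (0 of 22 tested, 3 unadjusted), beta-oxidation (0 of 26, 2 unadjusted), trehalose and glycogen (0 of 13, 1 unadjusted) and the insulin pathway (0 of 22, 2 unadjusted) were without calls in all 3 tools. Other settings did give calls. The most in any alternative were 2 for the AKH list, 2 for synthesis and 0 for beta-oxidation. They were 1 for trehalose and glycogen and 1 for the insulin pathway. Of 14 starch and sugar digestion genes, 0 passed in edgeR and limma and 1 in DESeq2, with 6 at unadjusted p under 0.05. Under the alternative with the most calls, 6 of them passed. Amy-d, an amylase, came closest: it had 949, 970 and 1079 CPM in wildtype libraries and 898, 882 and 922 CPM in paternal libraries (log2 difference -0.15, adjusted p = 0.0602). Lsp1alpha, a larval storage protein that the fat body makes, rose by 0.33 (SE 0.0763, edgeR adjusted p = 0.0435) from 48.1, 57.7 and 67.0 CPM to 69.3, 72.3 and 75.6 CPM. Its call was lost without the block and in 5 of the 6 fits that left out a library. Lsp1alpha was the only call among 9 tested storage and fat body protein genes (11.1%, against 1.61% of all genes). The median of that list was -0.04, with 4 genes at positive and 5 at negative values. Lsp1beta, on 2L, had a larger log2 difference of 1.13 but was not called (edgeR adjusted p = 0.0649).

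Lists of immune genes gave 2 calls. Of 16 Bomanins and other immune-induced peptide genes, CG16712 (IM33) fell by 0.26 and CG15068 (BomS6) by 0.36, with a list median of -0.20. These calls are 12.5% of the list, against 1.61% of all genes, and 15 of the 16 had negative values. Against the same wildtype libraries the list had 3 calls and a median of -0.18 in het flies. In maternal flies it had 1 call and a median of -0.17. The call of CG15068 was lost without the block (adjusted p = 0.0796). No gene of the list was called without paternal library 1 or without paternal library 3. CG16712 is the only gene of the list on 2L, where 4.60% of genes were called. Counts for CG16712 were 517, 498 and 513 CPM in wildtype libraries and 427, 426 and 422 CPM in paternal libraries. Antimicrobial peptide genes had the lowest list median, -0.43, yet 0 of 17 passed in edgeR, DESeq2 or limma and 0 stood at unadjusted p under 0.05. DptB, a diptericin, varied widely: its wildtype levels were 25.7, 9.68 and 62.8 CPM and its paternal levels 22.5, 11.9 and 6.95 CPM. The library wildtype 3 was high and paternal 3 low, and the list median was positive when either was left out. Among 5 tested Turandot stress peptide genes 0 passed in edgeR and limma and 1 in DESeq2, with a median of 0.39 and 1 gene at unadjusted p under 0.05.

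Off arm 2L the changes were smaller. Ser8, a serine protease gene on 2R, fell from 42.6, 50.6 and 39.1 CPM in wildtype libraries 1 to 3 to 33.6, 32.4 and 28.4 CPM in paternal libraries 1 to 3. The groups did not overlap, with a log2 change of -0.48 (SE 0.0594, edgeR adjusted p = 9.05e-05). Ser8 lies within the interval of CG42321. Idgf5, of the chitinase-like imaginal disc growth factors, fell by 0.59 (SE 0.0982, edgeR adjusted p = 0.00924) from 51.9, 53.7 and 54.6 CPM to 30.4, 42.9 and 33.5 CPM. dpr, an immunoglobulin-domain surface protein gene required for the salt response, fell by 0.53, with an adjusted p of 0.238 without the block. Its relative on 2L, dpr3, fell by 0.34, and these were the 2 calls among 21 tested dpr genes (9.52%, against 1.61% of all genes). CR43086 and CG41343 fell by 0.53 and 0.60, and kept their calls in 1 and 0 of the 6 fits that left out a library.

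The only genes off 2L that passed under every alternative were Scp1 and CG10863. Scp1, which encodes a sarcoplasmic calcium-binding protein of muscle, had 459, 451 and 417 CPM in wildtype libraries 1 to 3 and 370, 365 and 347 CPM in paternal libraries 1 to 3. CG10863, an aldo-keto reductase gene on 3L, had 317, 313 and 307 CPM in wildtype libraries and 250, 262 and 249 CPM in paternal libraries. Neither overlapped between groups. Their log2 changes were -0.29 (SE 0.0412, edgeR adjusted p = 0.000395) and -0.30 (SE 0.0378, edgeR adjusted p = 0.000116). cln3, the fly relative of the human lysosomal disease gene, fell by 0.34 (SE 0.0495, edgeR adjusted p = 0.000586) and kept its call in all 6 fits without 1 library.

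Rises off 2L did not exceed 0.33 among the genes named by rule. Besides CG8343 and Lsp1alpha they were CG8329, a serine protease gene (0.31), CG11815 (0.30), CG2616 (0.27) and Nup58, a nuclear pore protein gene (0.27). CG8329 had 88.9, 110 and 91.7 CPM in wildtype libraries and 113, 136 and 110 CPM in paternal libraries, so the highest wildtype library came close to the lowest paternal one. None of these 6 rises was called without the block, where their adjusted p lay between 0.0726 and 0.191.

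The lists of cytosolic ribosomal, contractile and mitochondrially encoded genes gave 1 call each. RpL38 fell by 0.20, the only one of 93 tested cytosolic ribosomal protein genes, and TpnC41C, a troponin C of muscle, fell by 0.22, the only one of 28 contractile genes. The shares called were 1.08% and 3.57%, against 1.61% of all genes. Both calls were lost without the block (adjusted p = 0.233 and 0.273) and held in 1 of the 6 fits without 1 library. Reads of cytosolic ribosomal protein genes made up 5.562 to 5.943% of the paternal, wildtype, het and other maternal libraries and 6.485% of maternal library 1. Of 10 tested genes of the mitochondrial genome, mt:CoII fell by 0.20 (SE 0.0470, edgeR adjusted p = 0.0389), from 1287, 1434 and 1090 CPM to 1117, 1207 and 996 CPM. The groups overlapped, and the adjusted p was 0.555 without the block. DESeq2 called 2 genes of this list. The list median was -0.38, with 9 of 10 genes at negative values and 2 at unadjusted p under 0.05. It stayed between -0.42 and -0.19 under all alternatives. By pair, the medians were -0.44, -0.44 and -0.07 in pairs 1 to 3.

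Heterozygotes with no obese parent gave a direct test of whether obese-father offspring differ from flies of the same labelled genotype. In that contrast 1 gene passed, 0.00781% of those tested, and 412 (3.22%) were at unadjusted p under 0.05. None of the 206 genes that differed from wildtype passed against het flies in edgeR, DESeq2 or limma, and 21 of the 206 were at unadjusted p under 0.05 in edgeR. Their median absolute log2 difference was 0.0419 against het, with the largest at 0.38 for CG41343, while it was 0.268 against wildtype, the contrast on which they were chosen. For CG9505 the difference from het was 0.09 (SE 0.0976), for CG15818 -0.04 (SE 0.103), for Gpdh 0.05 (SE 0.0508) and for Sfp26Ad 0.04 (SE 0.0406). Differences of that size are within about 1 standard error of 0, which does not show that the groups are alike.

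A few genes lay further from het than these. Sfp26Ac had 12.3, 13.2 and 9.65 CPM in het libraries 1 to 3, above its paternal level in each set, with a paternal minus het log2 difference of -0.26 (SE 0.0915, unadjusted p = 0.0117). For msopa the difference was -0.34 (SE 0.102, unadjusted p = 0.00813), with het levels of 80.6, 70.0 and 60.6 CPM. dpr3 differed by -0.15. The edgeR adjusted p was 1.00 for each of the 3.

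The gene that did pass was CG15572, on the X at X:4162734-4165116, and it did not differ from wildtype. It had 96.0, 90.5 and 95.1 CPM in wildtype libraries 1 to 3, 98.8, 93.9 and 94.4 CPM in paternal libraries 1 to 3 and 72.7, 73.3 and 69.9 CPM in het libraries 1 to 3. The paternal and wildtype values were interleaved, and every het library was below both. The paternal minus het log2 difference was 0.41 (SE 0.0428, edgeR adjusted p = 0.000163), and paternal minus wildtype was 0.03 (SE 0.0420, adjusted p = 0.822). The call against het was lost only when replicate 2 of all groups was left out.

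The 3 heterozygous groups were each set against the same wildtype libraries, so their changes share that source and are given side by side only. Het flies differed from wildtype at 284 genes (2.22%) and maternal flies at 227 (1.77%). The log2 rise of CG9505 was 1.66 for het, 1.76 for paternal and 1.67 for maternal flies. CG15818 changed by -1.29, -1.33 and -1.37, Cyp4d21 by 0.76, 0.78 and 0.67 and Gpdh by 0.38, 0.43 and 0.44. For CG3528 the values were -0.83, -0.75 and -0.44, and for CG42329 0.87, 0.96 and 0.70.

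**Figure D5:**
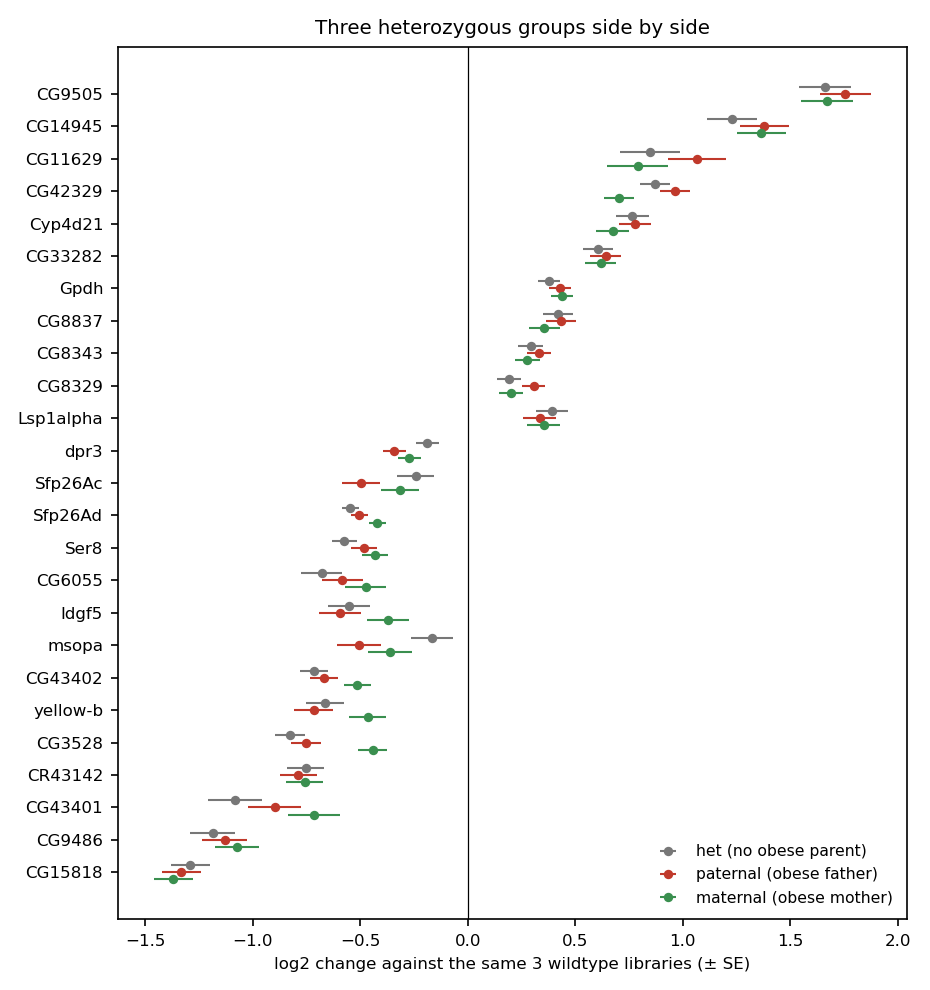
Fitted log2 change against the same 3 wildtype libraries (x axis, points with ± SE bars) of 25 genes (rows) in het, paternal and maternal flies. The 3 points of a gene lie on the same side of 0, from 1.66 to 1.76 for CG9505 to -1.29 to -1.37 for CG15818, and the shared wildtype libraries tie them together.

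Offspring of obese mothers differed from those of obese fathers at 3 genes (0.0234%). CG15572 was lower in maternal flies, with 46.4, 43.7 and 42.0 CPM (maternal minus paternal log2 difference -1.12, SE 0.0450, edgeR adjusted p = 1.25e-11). lectin-28C was higher, with 7.74, 5.97 and 7.82 CPM against 1.63, 1.40 and 1.25 CPM in paternal flies (2.33, SE 0.165, edgeR adjusted p = 1.35e-07). mt:CoII was the only member of the 206 among them, with 1536, 1415 and 1288 CPM in maternal libraries (0.35, SE 0.0471, edgeR adjusted p = 0.00196), and was not called there without the block, without paternal library 1 or 3, or without replicate 3 of all groups.

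The authors' deposited table for the same groups, read at its own adjusted p of 0.05 from DESeq, lists 137 genes past that point, 40 higher and 97 lower, with 81 on 2L. The block-based calls share 117 of them, which is 85.4% of the deposited calls and 56.8% of the 206, all in the same direction. The authors' deposited table also names a single exon with altered usage for 82 genes, of which 5 passed its threshold if the exon score is on the same scale as the gene score. In the authors' deposited table an exon of dpr3 at 2L:2066742-2067160 had a log2 ratio of 1.40 while the gene's own deposited log2 change was -0.25. For CG8837 the authors' deposited table gives an exon at 2L:3320518-3320647 with a log2 ratio of -1.15 and a gene change of 0.31. The other exons past the threshold belong to Acsl, cpo and alt in the authors' deposited table, with log2 ratios of 1.13, 1.36 and 1.15.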

How the data were processed

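Whole-fly polyA RNA of 12 libraries was sequenced, and 6 of them form the comparison. The authors deposited 5 tables, each setting 2 groups side by side. Per the file headers, the deposited columns are, for each gene, counts of reads, FPKM, the log2 fold change, a score for the adjusted p and, for some genes, an exon with its own log2 ratio and score. Per the file headers, other deposited columns give names and coordinates on D_melanogaster_Apr_2006, while Novoalign, DESeq and dm3 are named per the submitters' processing notes. Versions, annotation and strand setting are not stated there, and overlapping and antisense genes cannot be told apart. The deposited gene score was read as minus 10 times log10 of an adjusted p, since its median ratio to that value from DESeq2 on the 6 libraries was 0.999 over 249 genes. The exon score was not tested.

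Joining the tables gave 12982 genes with counts in all 12 libraries, and 58 genes were left out. Counts of a library repeated between tables had 0 disagreements. Start positions were converted to count from 1, and 12472 gene IDs matched a table of current names. edgeR 4.0.16 in R 4.3.3 was run on the counts with filterByExpr (minimum count 10, minimum total 15), TMM scaling and a robust quasi-likelihood fit of group and replicate number over all 12 libraries, which left 12809 genes and 6 residual degrees of freedom. The common biological coefficient of variation was 0.0449. The p-values were adjusted by Benjamini-Hochberg over all tested genes. Nothing beyond 1 set per experimental replicate says that libraries came from separate cultures, and the p-values then reflect the variation among the libraries at hand, which may be technical.

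The replicate number was used as a block because the study's design gives 1 set of samples per experimental replicate. As a check, deviations from group means were correlated: same-numbered libraries averaged r = 0.119 over 18 pairs, with 11 pairs over 0.1, and differently numbered ones -0.0592 over 36. Deviations cancel within each group, so a positive first average forces the second below 0, and the second is no separate support. Paternal and wildtype libraries of the same number correlated at 0.0131 to 0.0772, so the pairing rests on the design, and for many of the results that the block decides the value without it is given as well. DESeq2 1.42.0, limma 3.58.1 and other settings were run as alternatives, and the methods were tested on simulated data.

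Genes were named by rule: AkhR; among called genes without overlap and with a mean of at least 1 CPM in either group, the 10 largest rises and falls on 2L and the 6 largest off it; up to 4 called members of each list; and every gene called against het or maternal flies. Genes named outside it (CG5139, CG43349, CG5011, kraken, CG18132, CG2983, CG31937, CG18304, Scp1, CG10863 and cln3, and the remaining members of small counts) were chosen after their values were seen. The comparison and the gene lists were chosen with earlier results of these data known. Sequences are not shown because no genome of this build was used here.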

Additional observations from a re-analysis of the deposited data

Results flagged for a closer look

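CG15572 was singled out because the heterozygous groups differed from each other under the test of the difference itself: the paternal minus het log2 difference was 0.41 and the maternal minus paternal one -1.12. mt:CoII was singled out by a maternal minus paternal log2 difference of 0.35, and lectin-28C by one of 2.33. The mt:CoII difference was not called without the block, without paternal library 1 or 3, or without replicate 3 of all groups. All 4 values come from edgeR contrasts within the 12-library fit, and their causes were not tested.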

How the results depend on the processing

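Of the count of genes against wildtype, 206 with the replicate block, the value was 67 with no replicate block, 876 with only the 6 libraries and the block, 156 with the 6 libraries and no block, 177 in DESeq2, 200 in limma, 215 with DESeq2 size factors, 296 with no scaling, 201 with no filter and 143 over genes that overlap no other gene, where fewer genes were tested. It was 59 to 176 without 1 paternal or wildtype library, 339, 48 and 47 without replicate 1, 2 and 3 of all groups and 781 without maternal library 1, and the cause of this range was not tested. Against het flies the count of 1 ranged from 0 to 3 when replicates were left out, and the maternal minus paternal count of 3 from 2 to 5. Without the block those counts were 1 and 2. The 6-library blocked fit and the fit without maternal library 1 shared the direction of all 206 genes. For pairs, 11 of 12 libraries correlated best with their own number, as a hint from the same correlations. Of 104 named genes, 34 lost the call without the block and 70 did not change side. No log2 change of a called gene turned its sign in any alternative. Depth of 17212029 reads or more limits genes with a few reads, such as CR43821 with 8 reads in wildtype.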

Other observations

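Among called genes outside the lists above, 3 enzymes of one-carbon and purine synthesis fell, and they were picked after their values were seen. pug, a tetrahydrofolate enzyme gene, had 565, 540 and 560 CPM in wildtype libraries 1 to 3 and 464, 475 and 484 CPM in paternal libraries 1 to 3, a log2 change of -0.23 (SE 0.0384, edgeR adjusted p = 0.00299). CG3590 (adenylosuccinate lyase) fell by 0.37 and ade5 (Paics) by 0.19, with edgeR adjusted p of 0.00732 and 0.0234. The other 11 tested genes of a purine and folate list were not called. Over all tested genes 1.61% were called, and 1.09% were called lower. The median of all 14 was -0.07, and 10 of the 14 had negative values.

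Adh, the alcohol dehydrogenase gene of 2L, had 4180, 4219 and 4010 CPM in wildtype libraries and 3637, 3946 and 3541 CPM in paternal libraries, a log2 change of -0.16 (SE 0.0363, edgeR adjusted p = 0.0283). Adhr, its neighbour, had nearly the same values (4175, 4214 and 4005 CPM against 3632, 3941 and 3537 CPM), so the same reads appear to be listed under both genes and the pair counts as a single observation. The other 5 tested alcohol and aldehyde genes had log2 differences between -0.05 and 0.12 and were not called. With Adhr listed apart, 2 of 7 tested genes of this list were called. Over all tested genes 1.61% were called, and 4.60% on 2L.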
